A study of Arabidopsis thaliana with 12 samples.

Results

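The 34 genes described here encode the nuclear part of carbon fixation in the *Arabidopsis thaliana* leaf. They were picked by function, from the rows of a table of read counts with 33610 genes. They are the 4 small subunits of Rubisco and its activase (5 genes), the reduction step of the Calvin cycle (5), the regeneration of the CO2 acceptor (8), the CP12 proteins (3) and the photorespiratory pathway (13). Counts came from RNA-seq of leaves of 20-day-old plants, in 3 libraries of the wild type (Col-0) and 3 of *trm5-1*, which the labels number as replicates 2, 3 and 4. A supplementary legend and the extraction protocol name 10-day-old seedlings instead. *trm5-1* is a homozygous T-DNA insertion line (SALK_022617) in *TRM5* (AT3G56120), a tRNA methyltransferase gene. It is a single insertion allele, and no complemented line is among the samples used here. The question was how loss of *TRM5* relates to leaf mRNA levels.

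Rubisco joins CO2 to ribulose-1,5-bisphosphate in the chloroplast stroma. The product, 3-phosphoglycerate, is reduced to triose phosphate with ATP and NADPH from the light reactions, and most of the triose phosphate is used to rebuild the acceptor. Rubisco also reacts with oxygen, which yields 2-phosphoglycolate. Photorespiration returns that carbon to the cycle through enzymes of the chloroplast, the peroxisome and the mitochondrion. CP12 is a small redox-sensitive protein that binds glyceraldehyde-3-phosphate dehydrogenase and phosphoribulokinase into an inactive complex in the dark. In angiosperms many of these nuclear genes are induced by light and repressed by sugar.

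The small subunit of Rubisco is encoded by *RBCS1A* (AT1G67090) on chromosome 1 and by *RBCS1B* (AT5G38430), *RBCS2B* (AT5G38420) and *RBCS3B* (AT5G38410), which stand in tandem on chromosome 5. *RBCS3B* and *RBCS2B* are 2264 bases apart, and *RBCS2B* and *RBCS1B* are 1095 bases apart. A stretch of 89 coding bases is identical in the 3 tandem genes, and *RBCS1A* differs from it at 4 bases, which are in capitals. It is shown because a read lying wholly inside it could not be assigned to a single tandem gene. How many reads did so was not counted. The sequences are from the TAIR10.1 reference, on the minus strand, at chr5:15384447-15384535, chr5:15381300-15381388, chr5:15377598-15377686 and chr1:25048559-25048647 in the order printed.
*RBCS1B*: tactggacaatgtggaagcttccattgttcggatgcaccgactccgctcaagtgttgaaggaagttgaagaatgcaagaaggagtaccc
*RBCS2B*: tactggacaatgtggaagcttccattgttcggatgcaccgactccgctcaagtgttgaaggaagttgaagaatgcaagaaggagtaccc
*RBCS3B*: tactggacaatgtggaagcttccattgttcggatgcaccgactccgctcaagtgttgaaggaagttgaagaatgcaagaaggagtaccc
*RBCS1A*: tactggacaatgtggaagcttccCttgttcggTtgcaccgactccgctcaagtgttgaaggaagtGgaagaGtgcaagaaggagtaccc
Of all 50-base stretches in the exons, 12% in *RBCS1B*, 16.9% in *RBCS2B* and 16.5% in *RBCS3B* occurred again elsewhere in the genome, and 0% in *RBCS1A*. The split of counts between the tandem genes is therefore uncertain, to an extent that was not measured. For *PGLP1* (AT5G36700), the phosphatase that opens photorespiration, the figure was 100%. All of its exonic 50-base stretches also lie in its near-identical copy AT5G36790, 55871 bases away. Its counts of 0.531 to 1.11 CPM (counts per 1000000 of the scaled library size) in wild type cannot be assigned to it alone.

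The 250 bases before each annotated gene start were searched on both strands for the G-box CACGTG, the I-box GATAAG, the evening element core AATATCT and the GT1 element GGTTAA, which are known from promoters of plant genes under light or clock control. A G-box was present in 5 of the 34 windows (14.7%), against 6.49% of 27443 protein-coding genes and 17% of 47 nuclear genes of the photosystems and electron transport. The I-box was found in 17.6% of members and 12.3% of all genes. For the evening element core these shares were 8.82% and 10%, and for the GT1 element 14.7% and 14.6%. Only the windows of *RBCS2B* and *FBP1* (AT3G54050), the chloroplast fructose-1,6-bisphosphatase, held both a G-box and an I-box. They are shown with these letters in capitals. *GAPA1* (AT3G26650) and *GAPA2* (AT1G12900), which encode the A subunit of the chloroplast glyceraldehyde-3-phosphate dehydrogenase, held none of the 4 motifs. Their windows follow because *GAPA2* differed most between the genotypes and *GAPA1* encodes the same subunit. The windows are, in the printed order, at chr5:15382072-15382321 (minus strand), chr3:20016587-20016836 (plus), chr3:9794612-9794861 (plus) and chr1:4394455-4394704 (minus) of TAIR10.1.
*RBCS2B*: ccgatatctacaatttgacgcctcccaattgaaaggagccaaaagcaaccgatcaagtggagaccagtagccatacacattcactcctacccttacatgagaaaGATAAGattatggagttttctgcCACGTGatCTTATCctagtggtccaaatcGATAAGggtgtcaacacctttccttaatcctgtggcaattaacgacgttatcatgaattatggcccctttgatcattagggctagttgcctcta
*FBP1*: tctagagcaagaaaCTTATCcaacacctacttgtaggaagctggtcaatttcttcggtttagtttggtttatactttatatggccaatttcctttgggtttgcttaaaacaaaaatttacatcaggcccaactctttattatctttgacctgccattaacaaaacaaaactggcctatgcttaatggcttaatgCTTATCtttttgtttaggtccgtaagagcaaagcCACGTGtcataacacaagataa
*GAPA1*: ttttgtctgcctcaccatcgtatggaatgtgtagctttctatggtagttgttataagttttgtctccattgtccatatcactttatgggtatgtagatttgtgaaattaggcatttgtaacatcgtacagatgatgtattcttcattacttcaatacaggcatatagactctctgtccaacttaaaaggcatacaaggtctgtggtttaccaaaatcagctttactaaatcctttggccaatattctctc
*GAPA2*: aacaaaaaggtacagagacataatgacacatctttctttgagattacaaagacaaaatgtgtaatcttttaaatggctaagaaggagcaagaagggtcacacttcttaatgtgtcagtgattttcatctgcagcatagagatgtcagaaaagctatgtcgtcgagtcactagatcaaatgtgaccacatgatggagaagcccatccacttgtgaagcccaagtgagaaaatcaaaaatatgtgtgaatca
The G-box of *RBCS2B* begins 123 bases before the gene start, between I-boxes at 146, 115 and 94. In *FBP1* the G-box begins at 22 and the I-boxes at 236 and 56. None of these matches overlap. They are matches of letters and not known sites, and the counts do not measure what binds there. The annotated gene start lay 45 bases before the start codon in *GAPA2* and 418 bases before it in *RBCS1A*. Bases after the gene start, or more than 250 before it, were not searched. A gene without a match here may therefore hold the motif elsewhere.

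Library totals ran from 14954658 to 26927531 counts, with wild type replicate 2 the smallest. *TRM5* had 179, 643 and 526 counts in replicates 2, 3 and 4 of the wild type, against 100, 72 and 110 in *trm5-1*, which fits the labels. Its log2 fold change was -2.25 (SE 0.31, edgeR adjusted p = 0.0226). Replicates of a genotype were far apart. In wild type, 1506 genes differed more than 4-fold between replicates 2 and 3, and in 1503 of them replicate 4 lay between these. In *trm5-1* this held for 177 of 177 genes. Among the 34 members, replicate 4 lay between replicates 2 and 3 in 31 in each genotype. Counts of replicate 4, fitted as a weighted sum of replicates 2 and 3, had weights of 0.785 and 0.561 in wild type. In *trm5-1* the weights were 0.746 and 0.423. Whether replicate 4 was a separate plant sample was not tested. The SE, SD and p-values from 3 libraries per genotype treat it as separate. Values without it are given for the members' median, the counts of members, *GAPA2* and some other members. None of the 279 chloroplast and mitochondrial genes had a count, so the plastid-encoded large subunit of Rubisco (*rbcL*) was not measured.

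The members were lower in *trm5-1* in sum. They took 5.34%, 4.91% and 5.18% of all counts in replicates 2, 3 and 4 of the wild type, against 3.96%, 2.64% and 3.42% in *trm5-1*. Every wild type library was above every *trm5-1* library, and *trm5-1* replicate 3 was lowest. This also held for the sums of the Rubisco, reduction and regeneration groups. The sums overlapped for photorespiration (0.892% to 1.42% in wild type, 0.848% to 0.984% in *trm5-1*) and for CP12 (0.0642% to 0.119% and 0.0659% to 0.0863%). In bulk RNA, fewer photosynthetic cells and less mRNA per cell cannot be told apart.

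**Figure D1:**
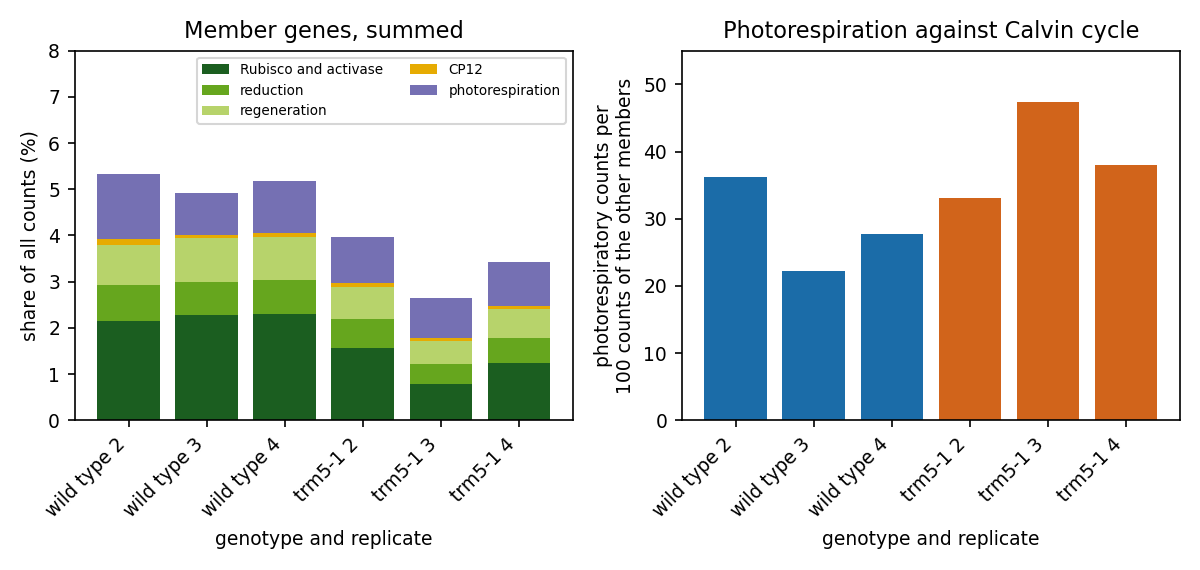
The left panel stacks, for each library, the share of all counts (%) held by the 5 groups of member genes. The right panel gives photorespiratory counts per 100 counts of the other 21 members. The stacked bars end between 4.91% and 5.34% in wild type and between 2.64% and 3.96% in *trm5-1*, while the bars on the right overlap between the genotypes.

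All 34 genes passed the filter on low counts and were tested. In edgeR's quasi-likelihood test, with p-values adjusted over 19408 genes after Benjamini and Hochberg, 1 of the 34 (*GAPA2*) was called lower in *trm5-1* at an adjusted p under 0.05, where 7.15% of all tested genes were. None was called higher (0 of 34, against 4.3% of all tested genes). At an unadjusted p under 0.05, 9 members were lower and 0 higher, against 19.2% and 13.6% of all genes. The log2 fold changes ran from -1.62 to 0.19. Their median was -0.52 and that of all tested genes was -0.00094. Without wild type replicate 2 the members' median was -0.30, without *trm5-1* replicate 3 it was -0.37, and without replicate 4 of both genotypes it was -0.54. Of the members 30 were below 0, as were 50.1% of all genes. In 14 members the 3 *trm5-1* libraries all lay below the 3 wild type libraries, and in 0 above, against 20% and 19.7% of all genes. Without replicate 4 the members' numbers were the same, 14 and 0, against 21.5% of all genes in each direction. DESeq2 in place of edgeR called 11 members lower and 0 higher, where it called 14.3% of all genes lower and 8.86% higher. These 11 were *RCA*, *GAPA2*, *TPI*, *FBA1*, *FBA2*, *FBP1*, *SBPASE*, *CP12-1*, *CAT2*, *GLDP2* and *GLDT*.

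**Figure D2:**
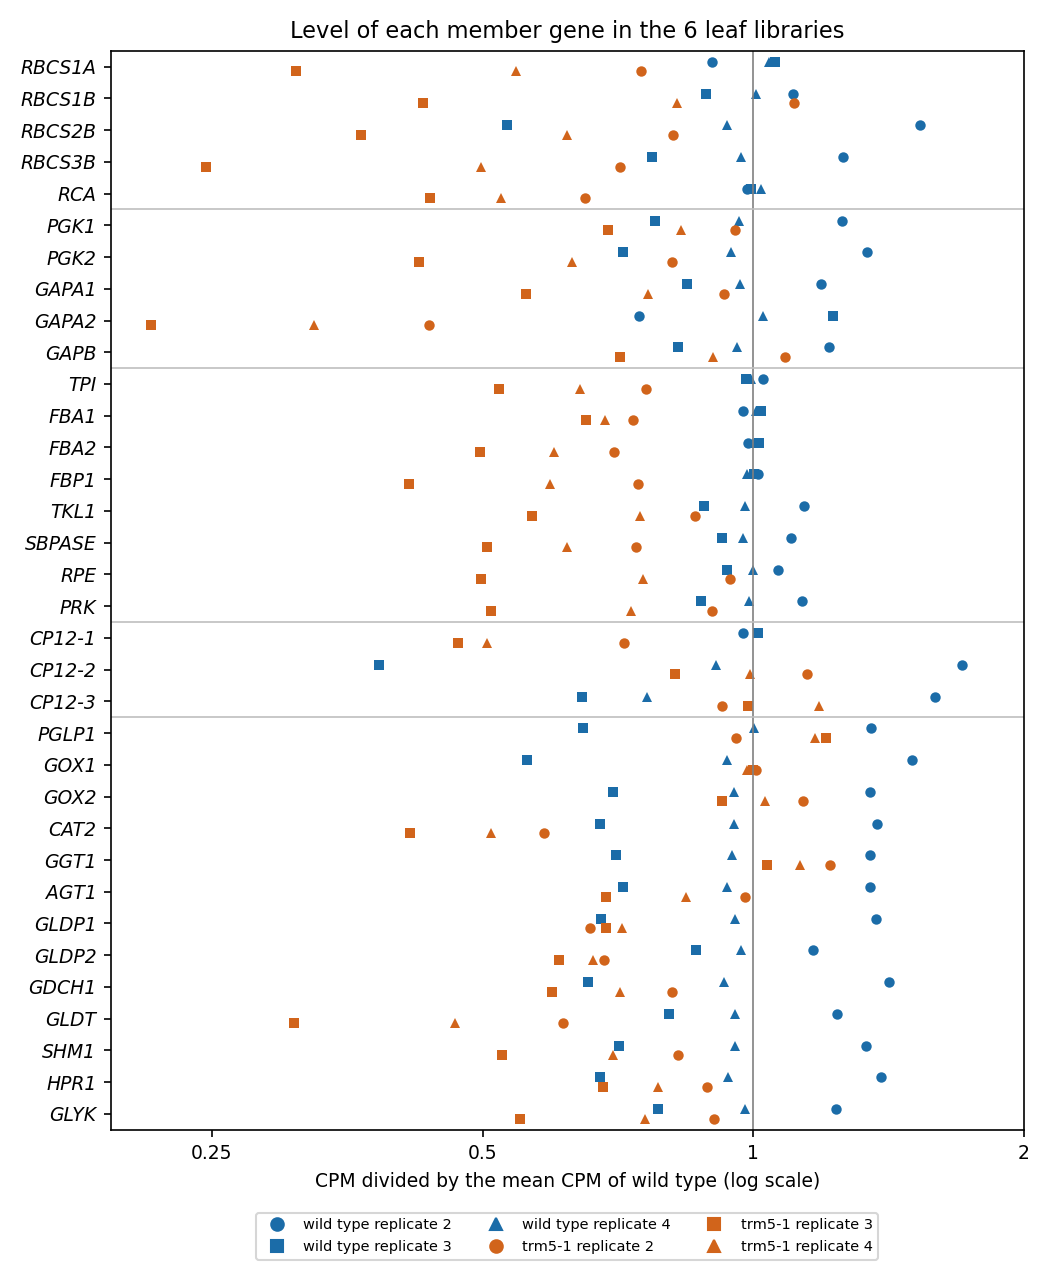
Each point is 1 library. The x axis gives CPM divided by the mean CPM of wild type, on a log scale, and horizontal lines part Rubisco and its activase, reduction, regeneration, CP12 and photorespiration. In regeneration the wild type points lie close together and *trm5-1* replicate 3 is lowest in 8 of 8 genes. In photorespiration wild type replicate 2 is highest and replicate 3 lowest among the wild type libraries in 13 of 13 genes.

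*RBCS1A* had the highest level per kilobase of exon of the 34 genes in both genotypes, 7380 CPM per kb in wild type and 3948 in *trm5-1* (means of 3 libraries). It was followed by *RBCS3B*, and then by *RCA* and *RBCS2B* in an order that differed between the genotypes. The level of *RBCS1A* was 8420, 9903 and 9750 CPM in replicates 2, 3 and 4 of the wild type, against 7017, 2904 and 5097 CPM in *trm5-1*. The groups did not overlap, but *trm5-1* replicate 2 was nearer to wild type than to *trm5-1* replicate 3. Its log2 fold change was -0.90 (SE 0.55, edgeR adjusted p = 0.292). *RBCS3B* had 5848, 3580 and 4496 CPM in wild type, against 3302, 1142 and 2312 CPM in *trm5-1*. The highest *trm5-1* library was just under the lowest of wild type, with a log2 fold change of -1.04 (SE 0.53, edgeR adjusted p = 0.220). *RBCS2B* ran from 3319 CPM in wild type replicate 2 to 1151 in replicate 3, with 2022 in replicate 4, and was at 1762, 793 and 1344 CPM in *trm5-1*. Its libraries overlapped, and so did those of *RBCS1B*. *RBCS1B* had 1148, 918 and 1043 CPM in wild type, against 1150, 445 and 852 CPM in *trm5-1*. The fold changes of these genes were -0.74 (SE 0.52) and -0.34 (SE 0.40) on the log2 scale, with edgeR adjusted p-values of 0.363 and 0.574. *RBCS2B* was at -0.27 without wild type replicate 2 and -0.46 without *trm5-1* replicate 3, and *RBCS1B* at -0.03 without *trm5-1* replicate 3 and -0.66 without *trm5-1* replicate 2.

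*RCA* (AT2G39730) encodes Rubisco activase, which removes sugar phosphates that block the active site. Its level was 5078, 5134 and 5272 CPM in wild type replicates 2, 3 and 4, a narrow range, and 3355, 2257 and 2706 CPM in *trm5-1*. All *trm5-1* libraries were lower, by a log2 fold change of -0.90 (SE 0.40) that did not pass the edgeR test (adjusted p = 0.175).

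Within the small subunit family, *RBCS1B* made up 6.13%, 5.90% and 6.02% of the counts in wild type and 8.69%, 8.43% and 8.87% in *trm5-1*. The shares did not overlap. They differed by 2.65 percentage points, with an SD of 0.11 in wild type and 0.23 in *trm5-1* (n = 3 each). The exact permutation test (two-sided) gave p = 0.1, the smallest that 3 against 3 libraries allow, and 0.3 after adjustment over the 12 shares compared. *RBCS1A* held 44.9% to 63.7% of the family's counts in wild type and 53.03% to 54.96% in *trm5-1*, which overlap. The shared stretch printed above limits how far the shares of the tandem genes can be trusted.

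The reduction step held the gene with the largest difference among the 34. *GAPA2* had 1007, 1656 and 1383 CPM in replicates 2, 3 and 4 of the wild type, against 587, 289 and 438 CPM in *trm5-1*. The groups did not overlap. It was 3.08-fold lower in *trm5-1* (log2 fold change -1.62, SE 0.38, edgeR adjusted p = 0.0456). Wild type replicate 2, the highest wild type library for most members, was the lowest here. Ranked by level per kilobase, it was 11th in wild type (834 CPM per kb) and 22nd in *trm5-1* (271 CPM per kb). The call was lost without wild type replicate 3 (adjusted p = 0.0712) or 4 (0.180), without *trm5-1* replicate 2 (0.0877), 3 (0.133) or 4 (0.195), and without replicate 4 of both genotypes (0.610). It was also lost with the replicate number as a block (0.146) and with no filter on low counts (0.0507). Without wild type replicate 4, without *trm5-1* replicate 4 and without both, edgeR called 0 of all tested genes, and 4, 1 and 0 members had an unadjusted p under 0.05. Of all genes, 2.68% were called lower without wild type replicate 3, 0.312% without *trm5-1* replicate 2 and 0.0447% without *trm5-1* replicate 3. With the block it was 0% and with no filter 4.36%. Over these fits the log2 fold change of *GAPA2* stayed between -1.87 and -1.37.

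*GAPA1*, the other A subunit gene, ran from 1672 to 2356 CPM in wild type and from 1107 to 1836 in *trm5-1*, which overlap, and its log2 fold change was -0.41 (SE 0.35, edgeR adjusted p = 0.444). *GAPB* (AT1G42970), the B subunit, was at -0.15 (SE 0.35, edgeR adjusted p = 0.786). *GAPA2* therefore gave 29.9%, 49.8% and 42.0% of A subunit counts in wild type and 24.2%, 20.7% and 22.4% in *trm5-1*. These shares did not overlap (exact permutation p = 0.1, adjusted 0.3). The phosphoglycerate kinases *PGK1* (AT3G12780) and *PGK2* (AT1G56190) had log2 fold changes of -0.28 (SE 0.34) and -0.68 (SE 0.34). Without wild type replicate 2, *GAPA1* was at -0.25, *PGK1* at -0.06, *PGK2* at -0.40 and *GAPB* at 0.03, and without *trm5-1* replicate 3 they were at -0.22, -0.14, -0.45 and 0.01. *PGK2* was the minor gene, with 11.99% to 13.6% of the pair's counts in wild type and 8.37% to 11.2% in *trm5-1*, which did not overlap.

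**Figure D3:**
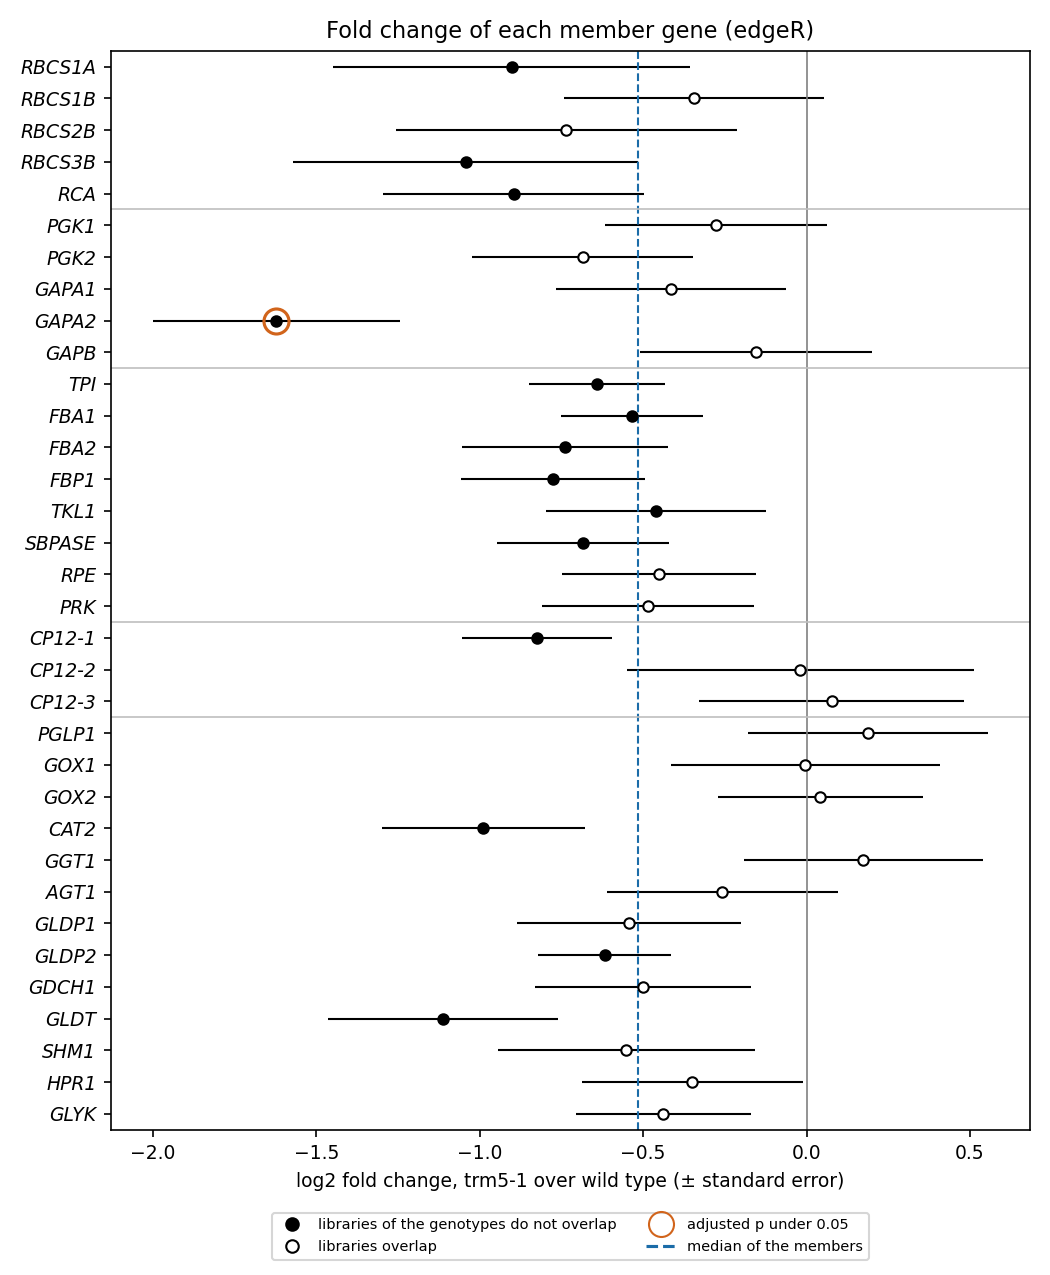
Points are log2 fold changes of *trm5-1* over wild type from edgeR and bars are standard errors (n = 3 libraries per genotype). Filled points mark the 14 genes whose libraries did not overlap, the ring marks *GAPA2*, the single gene with an adjusted p under 0.05, and the dashed line is the members' median of -0.52.

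In the regeneration group the 8 genes were all below 0, with log2 fold changes of -0.78 to -0.45 and a median of -0.59. None was called (0 of 8, against 7.15% of all tested genes called lower), 4 had an unadjusted p under 0.05 (19.2% of all genes) and in 6 the libraries did not overlap (20%). These genes varied little within wild type. The highest library exceeded the lowest by a median of 1.09-fold, against 1.60-fold over the 34 genes. *FBP1* ran from 674 to 693 CPM in wild type and from 283 to 509 in *trm5-1*, without overlap (log2 fold change -0.78, SE 0.28, edgeR adjusted p = 0.116). The plastid triose-phosphate isomerase *TPI* (AT2G21170) ran from 315 to 329 CPM and from 167 to 244 CPM (-0.64, SE 0.21, edgeR adjusted p = 0.0910). Both genes were at their lowest in *trm5-1* replicate 3. The aldolases *FBA1* (AT2G21330) and *FBA2* (AT4G38970) were at -0.53 (SE 0.22) and -0.74 (SE 0.32). *FBA2* held 74.9% to 75.3% of the aldolase pair's counts in wild type and 69.6% to 74.2% in *trm5-1*, so these shares did not overlap either. Sedoheptulose-1,7-bisphosphatase (*SBPASE*, AT3G55800), which commits carbon to regeneration, was at -0.68 (SE 0.26, edgeR adjusted p = 0.132), again without overlap. Transketolase (*TKL1*, AT3G60750) at -0.46 (SE 0.34) did not overlap, while ribulose-5-phosphate epimerase (*RPE*, AT5G61410) at -0.45 (SE 0.30) and phosphoribulokinase (*PRK*, AT1G32060), which makes the acceptor, at -0.48 (SE 0.32) did. Without *trm5-1* replicate 3 these were at -0.29, -0.22 and -0.27.

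The 3 CP12 genes differed among themselves. *CP12-1* (AT2G47400) had 352, 366 and 366 CPM in replicates 2, 3 and 4 of the wild type, against 260, 170 and 183 CPM in *trm5-1*. The wild type libraries were almost level and all *trm5-1* libraries lay below them. Its log2 fold change of -0.82 (SE 0.23) had the second smallest p of the members and did not pass (edgeR adjusted p = 0.0651). Without replicate 4 of both genotypes it was -0.74 (edgeR adjusted p = 0.696, where 0 of all genes were called lower). It passed without wild type replicate 2 (adjusted p = 0.0453, where 21.5% of all genes were called lower), and without replicate 2 of both genotypes (0.0294, where 19.5% were), a fit added after the data had been seen. *CP12-2* (AT3G62410) had 966, 217 and 514 CPM in wild type, against 650, 463 and 562 CPM in *trm5-1*. The *trm5-1* values fell inside the wide range of wild type, and the log2 fold change was -0.02 (SE 0.53, edgeR adjusted p = 0.986), with a sign that depended on the processing. *CP12-3* (AT1G76560) was near the limit of the counts, at 2.89, 1.17 and 1.38 CPM in wild type, against 1.67, 1.79 and 2.15 CPM in *trm5-1*. Its libraries overlapped (0.08, SE 0.40, edgeR adjusted p = 0.913), and the sign changed under upper quartile normalization. *CP12-1* accounted for 26.6%, 62.6% and 41.6% of CP12 counts in wild type, against for 28.5%, 26.8% and 24.5% in *trm5-1*. The share in wild type replicate 2 lay among those of *trm5-1* and the other two were above them.

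**Figure D4:**
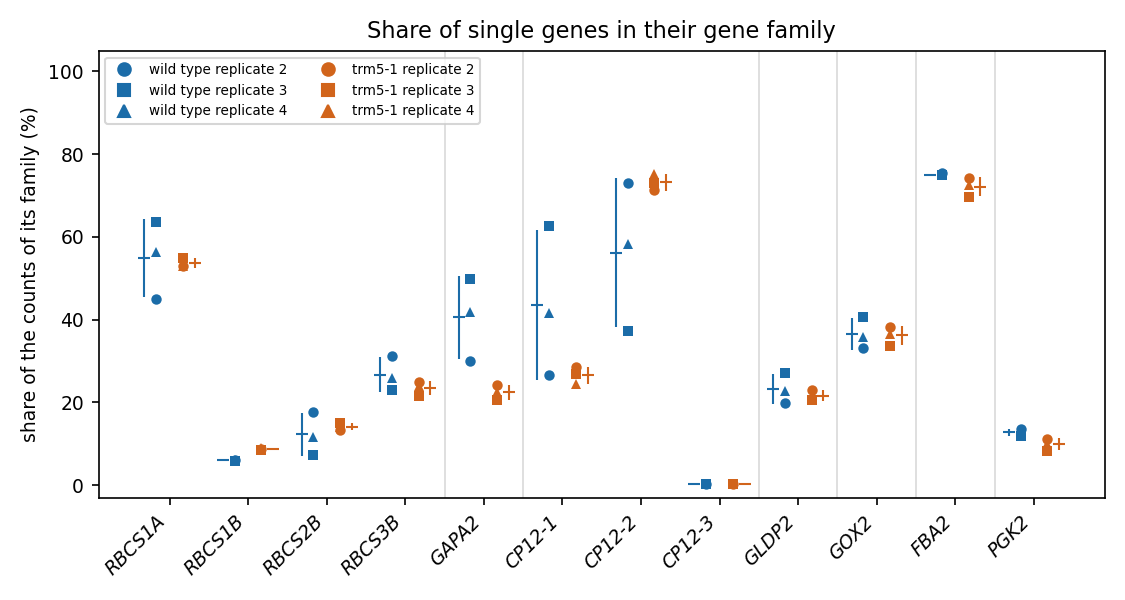
Points give the share of a gene in the counts of its family (%) for each library, and the crosses beside them are means with SD (n = 3). Families are parted by grey lines, and each share is of the members of that family (the 4 *RBCS* genes, the 3 *CP12* genes, or a pair). The *RBCS1B*, *GAPA2*, *FBA2* and *PGK2* shares do not overlap between the genotypes, and *GAPA2* shows the widest gap, with 29.9% to 49.8% in wild type and 20.7% to 24.2% in *trm5-1*.

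Photorespiration held 3 of the 4 members above 0, among them *PGLP1*, whose counts do not measure its level. Its 13 genes had log2 fold changes of -1.11 to 0.19 with a median of -0.44. None was called (0 of 13, against 7.15% of all tested genes called lower). In 3 the p was under 0.05 before adjustment, and in the same number the libraries did not overlap, with *trm5-1* lower. That is near the share of all genes, 19.2% and 20%. The 3 without overlap were *CAT2*, *GLDP2* and *GLDT*. *CAT2* (AT4G35090), a peroxisomal catalase that removes the hydrogen peroxide made by glycolate oxidase, had 482, 237 and 335 CPM in replicates 2, 3 and 4 of the wild type, against 205, 146 and 180 CPM in *trm5-1*. Wild type replicate 3 stood just above *trm5-1* replicate 2 (log2 fold change -0.99, SE 0.31, edgeR adjusted p = 0.0852). Of the other catalases, *CAT1* (AT1G20630) was at -0.06 (SE 0.14) and *CAT3* (AT1G20620) at 0.42 (SE 0.38), with edgeR adjusted p-values of 0.790 and 0.468. *CAT1* overlapped. *CAT3* did not, with 2184 to 3314 CPM in wild type and 3486 to 3789 CPM in *trm5-1*, and 19.7% of all genes were likewise higher without overlap.

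Glycine decarboxylase is the mitochondrial complex that releases CO2 and ammonia from glycine. Its T protein gene *GLDT* (AT1G11860) ran from 810 to 1246 CPM in wild type and from 310 to 618 CPM in *trm5-1* (log2 fold change -1.11, SE 0.35, edgeR adjusted p = 0.0862). Of the P protein genes, *GLDP2* (AT2G26080) ran from 325 to 438 CPM and from 228 to 256 CPM (-0.62, SE 0.20, edgeR adjusted p = 0.0953). *GLDP1* (AT4G33010), the more abundant P protein gene, ran from 876 to 1770 CPM and from 852 to 925 CPM, so that wild type replicate 3 fell among the *trm5-1* libraries (-0.54, SE 0.34). *GLDP2* took 19.8% to 27.0% of P protein counts in wild type and 20.5% to 23.1% in *trm5-1*. The H protein gene *GDCH1* (AT2G35370) and the serine hydroxymethyltransferase *SHM1* (AT4G37930), which acts with the complex, were at -0.50 (SE 0.33) and -0.55 (SE 0.39), with overlap. Without wild type replicate 2, *GLDP1* was at -0.23, *GDCH1* at -0.14 and *SHM1* at -0.26.

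In the other photorespiratory genes the genotypes overlapped. *GOX1* (AT3G14420) and *GOX2* (AT3G14415), glycolate oxidase genes 377 bases apart, had log2 fold changes of -0.0040 (SE 0.41) and 0.04 (SE 0.31). *GOX1* ranged from 663 to 1781 CPM in wild type but only from 1166 to 1195 CPM in *trm5-1*. *GGT1* (AT1G23310), a glutamate:glyoxylate aminotransferase, had 2309, 1207 and 1625 CPM in wild type, against 2088, 1777 and 1932 CPM in *trm5-1*, where all libraries fell inside the wild type range (0.17, SE 0.37, edgeR adjusted p = 0.765). *PGLP1*, whose counts are limited by its copy, had 1.11, 0.531 and 0.823 CPM in wild type, against 0.787, 0.992 and 0.963 in *trm5-1* (0.19, SE 0.37, edgeR adjusted p = 0.745). The serine:glyoxylate aminotransferase *AGT1* (AT2G13360) and the hydroxypyruvate reductase *HPR1* (AT1G68010) were at -0.26 (SE 0.35) and -0.35 (SE 0.34). The glycerate kinase *GLYK* (AT1G80380), which returns carbon to the Calvin cycle, was at -0.44 (SE 0.27). The libraries of *AGT1*, *HPR1* and *GLYK* overlapped, and without wild type replicate 2 these genes were at 0.04, -0.02 and -0.24. Without wild type replicate 3, *AGT1* and *HPR1* were at -0.45 and -0.57. *GOX1*, *GOX2*, *GGT1* and *PGLP1* changed sign with the libraries left out.

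The spread within wild type differed between the groups of genes. Wild type replicate 2 was the highest of the wild type libraries for 28 of the 34 members and replicate 3 the lowest for 27. For photorespiratory genes it was 13 of 13 in both cases, and the highest library exceeded the lowest by a median of 1.93-fold. In *trm5-1*, replicate 2 was highest for 31 and replicate 3 lowest for 30 of the 34. Photorespiratory counts per 100 counts of the other members were 36.2, 22.2 and 27.7 in wild type, against 33.0, 47.4 and 37.9 in *trm5-1*. Replicate 3 was lowest of the wild type libraries and highest of all in *trm5-1*, and the genotypes overlapped. These values come from few libraries and no test was made of the ratio.

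The other genes of the pathway gave a mixed picture. Of 4 further Calvin cycle genes, *FBP2* (AT5G64380), annotated as a fructose-1,6-bisphosphatase, was called lower (log2 fold change -1.52, SE 0.26, edgeR adjusted p = 0.0293), and none was called higher. The libraries did not overlap in 2 of the 4 with *trm5-1* lower and in 2 with *trm5-1* higher, against 20% and 19.7% of all genes. The median of the 4 was -0.07. Of 14 genes of Rubisco assembly and repair, 0 were called lower and 1 higher, the chaperonin subunit *CPN60B3* (AT5G56500, 0.90, SE 0.20, edgeR adjusted p = 0.0413), while 13 were below 0 and the median was -0.61. Among 16 further photorespiratory genes the only call was *GOX3* (AT4G18360), of the glycolate oxidase family. It had 5, 14 and 14 counts in wild type, against 70, 290 and 187 in *trm5-1*, with no overlap (3.91, SE 0.51, edgeR adjusted p = 0.0204). None of 9 transporters was called (median -0.33). Their smallest p in each direction were those of *BOU* (AT5G46800, -0.50, SE 0.17, edgeR adjusted p = 0.0995) and *BASS6* (AT4G22840, 0.62, SE 0.19, edgeR adjusted p = 0.0807), known as a mitochondrial carrier needed for photorespiration and as a chloroplast glycolate exporter. Of 13 genes for cytosolic counterparts of the enzymes, 2 were called lower, the aldolases *FBA5* (AT4G26530, -2.16, SE 0.33) and *FBA7* (AT4G26520, -1.53, SE 0.36), with edgeR adjusted p-values of 0.0253 and 0.0455. Their median was 0.04.

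Nuclear genes of the photosystems and electron transport are given for comparison. Of 47, 13 were called lower and 0 higher, with a median log2 fold change of -1.38. Within wild type their median differed in the opposite direction from that of the members. Their summed share of counts was 4.41%, 15.7% and 10.6% in replicates 2, 3 and 4, and 3.08%, 2.15% and 2.70% in *trm5-1*. From wild type replicate 2 to replicate 3 their log2 level differed by a median of 0.99, while that of the members differed by a median of -0.59. The medians of the member groups ran from -0.12 (regeneration) to -0.94 (photorespiration). *RBCS1A* (0.23) and *GAPA2* (0.72) differed the other way, while replicate 2 was the highest wild type library for 28 of the 34. With replicate 2 of each genotype the median differences between genotypes were -0.53 for the photosystem and electron transport genes and -0.48 for the members. With replicate 3 they were -2.22 and -0.62. These medians set a single library of each genotype side by side, and the replicate numbers were not taken as pairs. The difference between the lists was not tested.

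Markers of other tissues and states are given beside these values. The 5 dividing cell markers took 0.00107%, 0.0108% and 0.00647% of counts in wild type and 0.000293% to 0.000569% in *trm5-1*, and 3 of 5 were called lower. Flower markers, of which 3 of 5 could be tested and all 3 were called lower, held 0.000341% to 0.00142% in wild type and 0.000107% to 0.000145% in *trm5-1*. *AP1* (AT1G69120), which marks young flowers, had 1, 72 and 47 counts in the wild type libraries, while *trm5-1* had 0 in all 3. Of 4 vascular markers 2 were called lower, *XCP1* and *IRX3* of the xylem, and the other 2 were above 0 with overlap. Of 4 guard cell markers 1 was called lower, *MYB60*. The summed vascular share overlapped, with 0.0207% to 0.0307% in wild type and 0.0278% to 0.0288% in *trm5-1*. Root markers were near 0 except *PYK10* (AT3G09260), with 2, 589 and 358 counts in wild type, against 7, 2 and 139 in *trm5-1*. All 5 leaf markers were abundant in all libraries, and 1 of them, *PSAF*, was called lower. They summed to 0.991% to 3.14% of counts in wild type and 0.323% to 0.642% in *trm5-1*. *PSAF*, *LHCB1.3* and *PSBS* are also in the list of photosystem and electron transport genes above, so these markers repeat part of that list. Of 4 senescence genes 3 could be tested, with log2 fold changes from -1.58 to 5.25, of which 1 was below 0 and 2 above. Only *SAG13* (AT2G29350) was called, as higher (5.25, SE 0.82, edgeR adjusted p = 0.0257). In the other 2 the libraries overlapped. The part of these tissues and states in the members' values was not tested.

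Among regulators of photosynthesis genes, 0 of 10 were called, and the smallest p in each direction were those of *GLK2* (AT5G44190, -2.36, SE 0.79, edgeR adjusted p = 0.0985) and *CGA1* (AT4G26150, 0.82, SE 0.34, edgeR adjusted p = 0.151). *GLK2*, a transcription factor of chloroplast development, had 102, 2583 and 1597 counts in wild type, against 216, 245 and 298 in *trm5-1*, so wild type replicate 2 lay below every *trm5-1* library. None of 11 clock genes was called (smallest p, *PRR5*, AT5G24470, -2.29, SE 0.58, edgeR adjusted p = 0.0537, and *ELF4*, AT2G40080, 0.98, SE 0.35, 0.115). *PRR5* had 21.6, 117 and 77.5 CPM in replicates 2, 3 and 4 of the wild type, against 16.9, 12.3 and 15.1 CPM in *trm5-1*. Its libraries did not overlap, and wild type replicate 2 was just above *trm5-1*. Of 5 sugar starvation genes 0 were called. Those with the smallest p were *BGAL4* (AT5G56870, -1.56, SE 0.39, edgeR adjusted p = 0.0531) and *EXL2* (AT5G64260, 0.55, SE 0.49, 0.467). The time of harvest is not given in the sources used here, and the part of clock phase in the members' values was not tested.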

How the data were processed

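RNA-seq reads of 3 wild type and 3 *trm5-1* leaf libraries had been trimmed with Trim Galore (0.4.2), mapped to TAIR10 with STAR (2.5.3) and counted per gene with featureCounts, whose settings are not given in the sources used here (versions from the submitters' processing notes). The authors deposited counts without normalization, and a table of normalized values, in which the signal is the count over a size factor per library, used here only with limma. The tRNA-seq files were not used.

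The test was that of edgeR 4.0.16, run in R 4.3.3 (filterByExpr, TMM, quasi-likelihood fit, Benjamini-Hochberg adjustment over 19408 genes, adjusted p under 0.05). The common biological coefficient of variation was 34.4%. CPM are counts over TMM library sizes, and the SE is the log2 fold change divided by the square root of F. Shares within families were compared by exact permutation tests (scipy 1.17.1). Alternatives used limma 3.58.1 and DESeq2 1.42.0, and figures matplotlib 3.10.9. Upstream windows, exon lengths and shared stretches came from the TAIR10.1 assembly and RefSeq annotation. The count table holds no coordinates. The methods call the replicates biological. Members, lists and tests were chosen with earlier results of these data known. All 34 members may be named. Library values are given for called members, the 3 with the smallest p in each direction, *RBCS*, *RCA* and *CP12* genes. Of other lists the called genes or else the smallest p in each direction are named. Outside this rule, *CAT1*, *CAT3*, *AP1*, *PYK10*, *LHCB1.3* and *PSBS* are named as well.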

Additional observations from a re-analysis of the deposited data

How the results depend on the processing

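Over 16 alternatives, 515 of 544 fold changes of members kept their direction, and 29 in 8 members changed sign. The number of members called lower, 1 in the fit reported, was 0 with no filter on low counts, with the replicate number as a block and without replicate 4 of both genotypes. It was 0 to 2 when single libraries were left out, 2 without replicate 2 of both genotypes (added after seeing the data) and 11 with DESeq2, and 0 were called higher throughout. *GAPA2* had adjusted p-values of 0.0507 with no filter and 0.146 with the replicate block. Over all tested genes, same-numbered libraries did not deviate together (correlations -0.024, 0.00031 and 0.067), and the numbers were not taken as pairs. Among the members, replicate 2 was mostly highest and replicate 3 lowest in both genotypes. With the block their median was -0.51, and 0 of all genes were called.

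The sign changes were as follows. *CP12-2* (main -0.02) was at 0.00074 with no filter, 0.21 with the replicate block, 0.23 with limma, 0.50 without replicate 2 of both genotypes, and ran from -0.41 to 0.63 over the libraries left out. *GOX1* (main -0.0040) was at 0.018 with no filter, 0.11 with the block, 0.0079 with library sizes without the members, 0.00038 with DESeq2, 0.12 with limma, 0.42 without replicate 2 of both genotypes, and from -0.29 to 0.44 over the libraries left out. *CP12-3* was at -0.011 with upper quartile normalization, -0.21 without replicate 4 of both genotypes, and from -0.17 to 0.58 over the libraries left out. *GOX2* was at -0.047 with upper quartile normalization and from -0.16 to 0.34 over the libraries left out. Over the libraries left out, *GAPB* ran from -0.29 to 0.032, *PGLP1* from -0.062 to 0.46, *GGT1* from -0.028 to 0.47 and *AGT1* from -0.45 to 0.039. Leaving out a replicate number, the difference in share ran from -5.99 to 2.41 percentage points for *RBCS1A*, -1.04 to 4.96 for *RBCS2B*, -4.04 to 0.876 for *GLDP2* and -3.16 to 2.92 for *GOX2*, with the sign turned without replicate 3. The members' median ran from -0.64 to -0.30 over the libraries left out. Upper quartile normalization moved the median of all genes to -0.12 and that of the members to -0.61. The cause of these changes was not tested.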
